A study of Saccharomyces cerevisiae with 9 samples.

Results

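The proteins of the large (60S) ribosomal subunit of budding yeast are encoded by genes named RPL with a number, and by the stalk genes RPP0, RPP1A, RPP1B, RPP2A and RPP2B. Members were chosen by these names in the R64 annotation, leaving out the mitochondrial MRPL genes. The annotation names 81 such genes, and 76 of them were measured, out of 5667 genes on the arrays. The 76 genes comprise 11 that exist as 1 copy and 65 whose names carry an A or B, and in 30 pairs both copies were measured. RPL1A, RPL7B, RPL35B, RPL41B and RPL42A were not analysed here, so their partners entered no comparison of copies.

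The ribosome's large subunit joins amino acids into protein, and its RNA core is held together by many small basic proteins. Budding yeast kept most of these genes as duplicated pairs from an ancient whole genome duplication. In most pairs copies A and B encode identical or nearly identical proteins. Sequences were not compared here, and the acidic stalk pairs RPP1 and RPP2 are not to be read as identical proteins. Transcription of ribosomal protein genes depends on Rap1, Fhl1 and Ifh1 at their promoters and is driven by nutrients through the TOR and protein kinase A pathways, which makes these genes a classic readout of growth signalling in yeast.

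Cultures of BY4741 background grew at 30 °C in the rich medium YPD and were collected on day 5. Non-restricted cultures (NR) had 2% glucose, calorically restricted cultures (CR) had 0.5% glucose, and rapamycin cultures (RM) had 2% glucose with 100 nM rapamycin, which inhibits TOR signalling. There were 3 biological replicates per group, with 1 Affymetrix Yeast 2.0 array each. All 3 groups share the same strain and day, so no culture in growth phase serves as a reference, and a fall is a fall relative to cultures of the same age.

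Values are log2 signals, on which a difference of 1 is a 2-fold change. They are relative to the other RNA on the array, so fewer ribosomal protein mRNAs per cell and more of other RNA cannot be told apart. Signals of different probe sets are not compared in level, since probe sets differ in brightness. A gene is called when limma's moderated test gives a Benjamini-Hochberg adjusted p under 0.05 over all 5667 genes and the group means differ by 2-fold or more. Values of the 3 arrays of a group are given in the order of replicates 1, 2 and 3, and errors beside a change are standard errors of that fit.

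Before the results, some arrays stood apart. NR replicate 3 correlated with its group mates at 0.928 and 0.948 over all genes, against 0.977 between the other NR arrays, and was the highest NR array for 74 of the 76 large subunit genes. RM replicate 2 was the lowest RM array for 61 of them, and RM replicate 3 the highest for 69. The median of the 76 genes' deviations from their group mean was 0.33 in NR replicate 3, -0.26 in RM replicate 2 and 0.25 in RM replicate 3. Over all genes these medians were -0.02, -0.01 and 0.02. The CR arrays hardly differed, with a median SD of 0.051 over the 76 genes against 0.32 in NR and 0.27 in RM. Of the genes deleted in BY4741, LEU2, MET17 and URA3 read between 0.71 and 2.01 on all 9 arrays, while HIS3, of which that strain keeps part, read 5.38 to 6.83. Genes of a-type cells, the mating type of BY4741, were present, and the summed log2 level of the 6 listed ran from 10.10 to 12.11 in NR, from 9.43 to 9.54 in CR and from 10.49 to 10.97 in RM. NR replicate 3 was the highest NR array for all 6. In CR over NR, 4 of 6 were called lower, against 19.8% of all genes, namely AGA2 (-3.23), MFA2 (-2.11), BAR1 (-1.56) and STE6 (-1.07). NR replicate 3 raised the NR means, as for MFA2 at 8.20, 8.13 and 10.27, and a fit without it is not given for these genes. In RM over NR, 0 of 6 were called, against 4.61% lower and 3.99% higher of all genes. There 0 had an unadjusted p under 0.05 in limma's test, against 47.3% of all genes. Of the 4 alpha-type genes, STE3 (4.63 to 6.85) and SAG1 (6.69 to 8.28) were not as low as LEU2, MET17 and URA3. The alpha-factor gene MF(ALPHA)1 read 3.5, 3.5 and 6.62 in NR, 2.32 to 2.48 in CR and 3.09 to 3.78 in RM, and MF(ALPHA)2 read 2.75 to 4.42. The summed level of the 4 ran from 7.34 to 8.04 in NR, from 8.04 to 8.09 in CR and from 8.12 to 8.62 in RM, and in CR over NR 1 was called lower and STE3 was called higher (1.69). The part of these markers in any result was not tested.

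**Figure D1:**
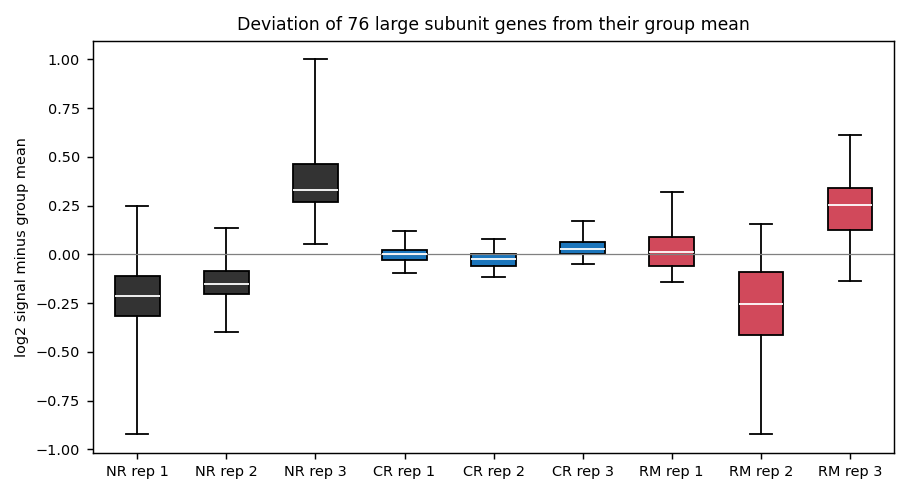
Deviation of the 76 large subunit genes from the mean of their group (log2 signal, vertical axis) on each of the 9 arrays. Boxes span the quartiles, white lines the medians and whiskers the full range. NR replicate 3 sits above and RM replicate 2 below their group mates, at medians of 0.33 and -0.26, and the CR arrays lie close to 0.

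Growth in 0.5% glucose lowered nearly the whole set. In CR over NR, 69 of the 76 genes were called lower and 0 higher, against 19.8% of all genes called lower and 17.8% called higher. The median change of the 76 genes was -2.11, a 4.31-fold fall, where the median over all genes was 0.03. Of the called genes, 42 had fallen 4-fold or more and 5 had fallen 8-fold or more. Among small subunit genes, 45 of 53 were called lower and 0 higher, with a median of -2.17. By copy number, 10 of the 11 genes with 1 copy were called lower (median -2.11) beside 59 of the 65 with an A or B (median -2.11). All 69 calls held when any 1 array was left out, and without NR replicate 3 the median was -1.89.

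Rapamycin moved far fewer of these genes. In RM over NR, 6 of the 76 were called lower and 1 was called higher, against 4.61% and 3.99% of all genes, and the median change was -0.44 where that of all genes was -0.05. At an adjusted p under 0.05 with no limit on size, 19 were lower (25%) and 3 higher (3.95%), against 19.4% and 17.6% of all genes. Leaving out 1 array gave 10 to 39 lower and 2 to 5 higher by that rule. The fewest lower (10) came without RM replicate 1 or RM replicate 2 and the most without NR replicate 1. In a fit of the NR and RM arrays alone, 7 were lower and 1 was higher by that rule. Small subunit genes had 2 called lower and 2 higher of 53, with a median of -0.41. Single arrays bear on these counts, those that stood apart and others. Without NR replicate 3, 3 genes were called lower and 1 higher, with a median of -0.24. Without RM replicate 2, 1 was called lower and 1 higher, with a median of -0.30. Without NR replicate 1 or without RM replicate 3, the lower calls numbered 12 and 13, with 1 higher in each. Without NR replicate 2, 5 were called lower and 0 higher.

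Between the treatments, 64 of the 76 genes were called lower in CR over RM and 0 higher, against 13.1% and 12.7% of all genes. The median change was -1.75. In limma's test 0 of the 76 were higher at an unadjusted p under 0.05 in CR over RM, and 0 in CR over NR. Among small subunit genes, 46 of 53 were called lower, with a median of -1.89. CR over NR and CR over RM share the CR arrays, and CR over NR and RM over NR share the NR arrays, so the 3 comparisons are not independent of each other.

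**Figure D2:**
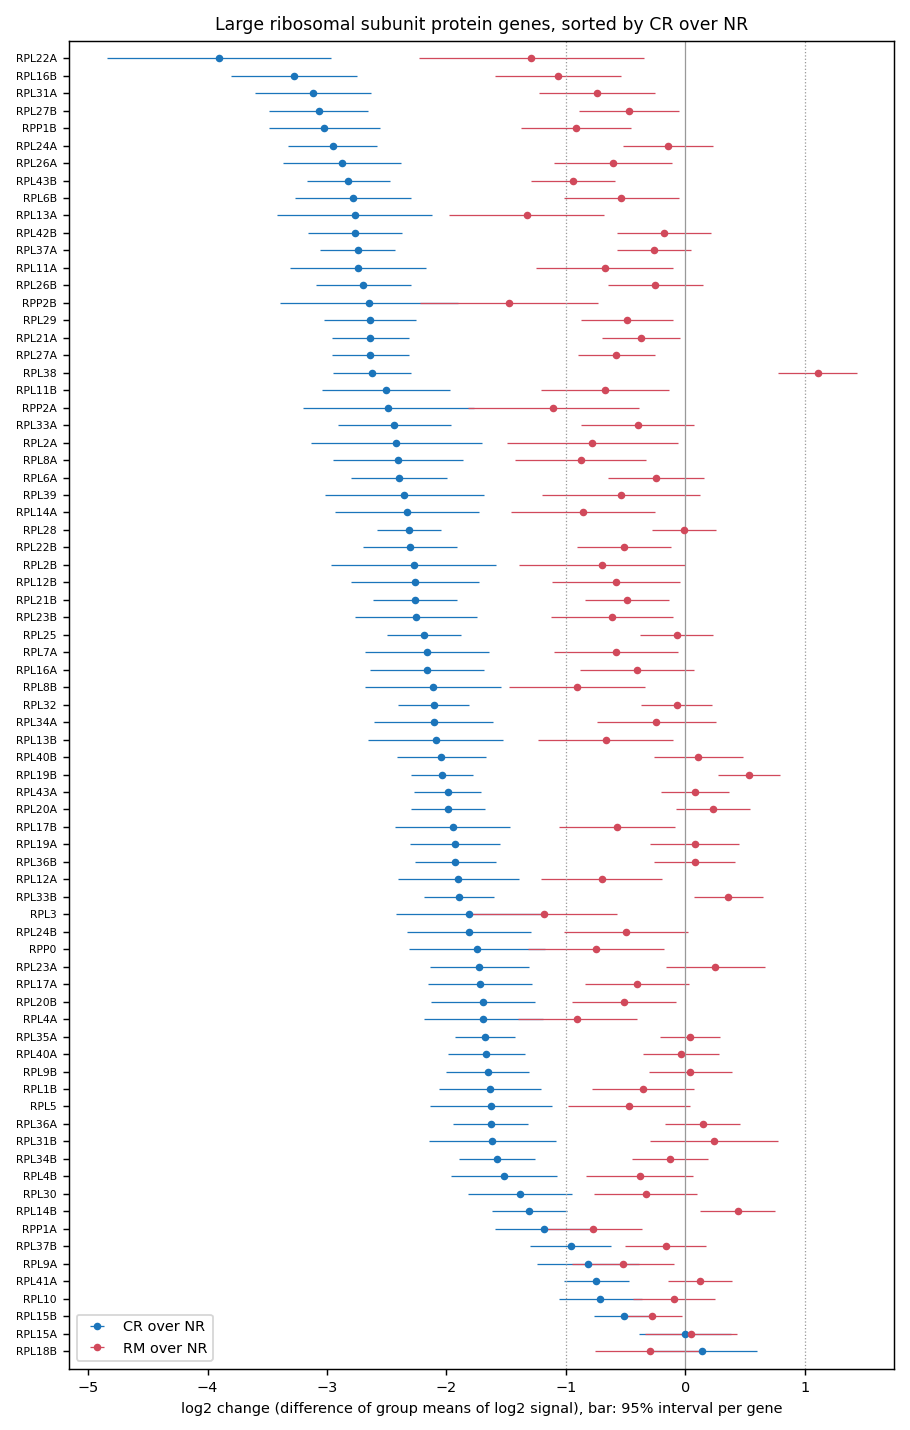
Log2 change of the large subunit genes reported here in CR over NR (blue) and RM over NR (red), sorted by the former, with 95% intervals per gene. Dotted lines mark 2-fold. Blue points run from -3.90 for RPL22A to 0.14 for RPL18B and red points lie nearer to 0, with RPL38 alone beyond 2-fold on the right.

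The stalk is the flexible arm of the subunit that recruits the translation factors. Its base is formed by the proteins of RPP0 and of the RPL12 pair, and the acidic proteins of RPP1A, RPP1B, RPP2A and RPP2B hang from it as dimers. All 7 stalk genes were called lower in CR over NR, with a median of -2.27, against 19.8% of all genes. In CR over RM 5 of 7 were called lower, against 13.1% of all genes. In RM over NR, 2 of 7 were called lower, both of the RPP2 pair, against 4.61% of all genes. At an adjusted p under 0.05 with no limit on size, 6 of 7 were lower, against 19.4% of all genes. That last count was 3 of 7 without NR replicate 2, NR replicate 3, RM replicate 1 or RM replicate 2. It was 4 without any 1 CR array, and 7 without NR replicate 1 or RM replicate 3. In a fit of the NR and RM arrays alone it was 3 of 7. The stalk median in RM over NR was -0.78, with all 7 genes below 0.

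RPP0 (YLR340W) read 9.90, 10.03 and 10.73 on the NR arrays, 8.43, 8.56 and 8.44 on the CR arrays and 9.66, 8.99 and 9.77 on the RM arrays. Neither treatment overlapped NR. Its change was -1.75 ± 0.25 (adjusted p = 0.0002315) in CR over NR and -0.75 ± 0.25 (adjusted p = 0.04468) in RM over NR, the latter under 2-fold and past the threshold in 2 of the 9 fits that leave out an array. In the other 7 its adjusted p ran from 0.06298 to 0.1421. RPL12A (YEL054C), whose protein binds the stalk base, read 9.0, 8.97 and 9.46 in NR, 7.27, 7.18 and 7.28 in CR and 8.51, 7.96 and 8.87 in RM. RPL12B (YDR418W) read 8.90, 9.34 and 9.72 in NR, 6.99, 7.07 and 7.11 in CR and 8.80, 8.32 and 9.11 in RM, where RM overlapped NR. The RPL12 copies fell by 1.90 and 2.27 on the log2 scale in CR over NR.

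The acidic proteins gave the largest difference between copies in the whole set. RPP1A (YDL081C) read 9.59, 9.55 and 10.06 in NR, 8.59, 8.44 and 8.61 in CR and 9.0, 8.66 and 9.21 in RM. RPP1B (YDL130W) read 9.57, 9.70 and 10.24 in NR, 6.82, 6.78 and 6.83 in CR and 8.91, 8.60 and 9.24 in RM. The copies lay far apart in CR. RPP1A fell by 1.18 in CR over NR and RPP1B fell by 3.02, a difference of 1.84 ± 0.11 (3.58-fold, adjusted p = 1.713e-06). In RM over NR the copies changed by -0.78 and -0.91, and their difference of 0.14 ± 0.11 did not pass (adjusted p = 0.3348), with a 95% interval from -0.11 to 0.38.

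Both RPP2 genes, at -2.49 and -2.65, were called lower in CR over NR. RPP2A (YOL039W) read 9.61, 9.98 and 10.53 in NR, 7.56, 7.52 and 7.58 in CR and 9.14, 8.21 and 9.46 in RM. RPP2B (YDR382W) read 9.93, 10.15 and 11.04 in NR, 7.76, 7.63 and 7.79 in CR and 9.09, 8.24 and 9.37 in RM. In both genes every RM array lay below every NR array, and RM replicate 2 was the lowest RM array. RPP2B had the lowest RM over NR change of the 76 genes, at -1.48 ± 0.33 (adjusted p = 0.009884), and RPP2A changed by -1.10 ± 0.32 (adjusted p = 0.02573). The RPP2A call was lost without NR replicate 3 (-0.86, adjusted p = 0.05791) and without RM replicate 2 (-0.74, adjusted p = 0.06301). It was also lost without NR replicate 2 (adjusted p = 0.05767), without RM replicate 1 (adjusted p = 0.05189) and in a fit of the NR and RM arrays alone (adjusted p = 0.07125). RPP2B was called whichever 1 array was left out.

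RPL5 and RPL11 proteins join the 5S ribosomal RNA in a particle that is built before it docks on the subunit. RPL5 (YPL131W) read 10.36, 10.17 and 10.74 in NR, 8.82, 8.80 and 8.76 in CR and 10.22, 9.43 and 10.22 in RM. RPL11A (YPR102C) read 8.91, 8.92 and 9.67 in NR, 6.46, 6.33 and 6.48 in CR and 8.56, 8.02 and 8.89 in RM. RPL11B (YGR085C) read 9.44, 9.55 and 9.94 in NR, 7.09, 7.14 and 7.17 in CR and 9.21, 8.38 and 9.31 in RM. All 3 genes were called lower in CR over NR (19.8% of all genes were), with changes from -2.74 to -1.63. All 3 were called lower in CR over RM (13.1% of all genes were). None was called in RM over NR, where they lay between -0.67 and -0.47 with adjusted p from limma between 0.05188 and 0.1312, and 2 of the 3 had an unadjusted p under 0.05, as had 2680 of all 5667 genes (47.3%). The RPL11 copies did not differ detectably in response, with a difference of -0.24 ± 0.14 in CR over NR and a 95% interval from -0.54 to 0.07.

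Around the catalytic centre and the bridges to the small subunit, 10 of 12 measured genes were called lower in CR over NR, against 19.8% of all genes. In CR over RM 9 were called lower, against 13.1%, and in RM over NR 1 was (8.33%), against 4.61%. The exceptions in CR over NR were RPL10 and RPL41A. RPL10 (YLR075W), whose protein is added to the subunit late, in the cytoplasm, read 11.29, 10.89 and 11.50 in NR, 10.54, 10.47 and 10.54 in CR and 11.08, 11.18 and 11.14 in RM. All CR arrays lay below all NR arrays, but the fall was under 2-fold, at -0.71 ± 0.15 (adjusted p = 0.002491). RPL41A, which encodes the smallest ribosomal protein, changed by -0.75 ± 0.12 in CR over NR, on a probe set ending in _s_at that read 2.52 to 3.46.

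RPL3 (YOR063W), whose protein reaches towards the catalytic centre, was the only gene of this group called under rapamycin. It read 10.18, 10.40 and 10.75 in NR, 8.63, 8.56 and 8.69 in CR and 9.58, 8.56 and 9.64 in RM. RM replicate 2 had the CR level, and the other RM arrays lay between CR and NR. The change was -1.81 ± 0.27 (adjusted p = 0.0002835) in CR over NR and -1.18 ± 0.27 (adjusted p = 0.01087) in RM over NR, and CR did not differ detectably from RM (-0.63 ± 0.27, adjusted p = 0.07584). Without RM replicate 2 the RM over NR change was -0.84 (adjusted p = 0.01301), under 2-fold.

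The RPL40 genes encode their protein fused to ubiquitin. RPL40A (YIL148W) read 10.68, 10.77 and 11.17 in NR, 9.20, 9.17 and 9.26 in CR and 10.79, 10.79 and 10.93 in RM. RPL40B (YKR094C) read 9.13, 9.03 and 9.53 in NR, 7.21, 7.09 and 7.27 in CR and 9.24, 9.20 and 9.6 in RM. Both fell in CR, by 1.67 and 2.04 on the log2 scale, and RM overlapped NR in both.

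Along the exit tunnel and its mouth, where the new protein leaves, 13 of 13 measured genes were called lower in CR over NR, with a median of -1.95. In CR over RM 12 of 13 were called lower. Of all genes, 19.8% and 13.1% were called lower in these comparisons. None of the 13 was called in RM over NR, against 4.61% lower and 3.99% higher of all genes. At an adjusted p under 0.05 with no limit on size, 2 were lower and 1 was higher there, against 19.4% and 17.6% of all genes. An unadjusted p under 0.05 was found for 5, against 47.3% of all genes. RPL39 (YJL189W), whose small protein lines the tunnel, read 8.90, 8.80 and 9.90 in NR, 6.80, 6.91 and 6.82 in CR and 8.57, 8.30 and 9.11 in RM. It fell by 2.35 in CR, and RM overlapped NR. RPL19B (YBL027W) was one of the genes that were higher under rapamycin. It read 9.50, 9.34 and 9.54 in NR, 7.46, 7.35 and 7.46 in CR and 9.85, 10.06 and 10.07 in RM, and its RM over NR change was 0.53 ± 0.12 (adjusted p = 0.008552), under 2-fold. RPL1B, the measured gene of the L1 stalk on the other side of the subunit, was called lower in CR over NR (-1.64) and not called in RM over NR (-0.36). Its probe set ends in _s_at.

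RPL38 took the opposite course under the treatments. Its protein, which in mice is known for a role in translating Hox mRNAs, is encoded by 1 gene in yeast (YLR325C). The gene read 10.23, 9.68 and 10.03 on the NR arrays, 7.33, 7.30 and 7.44 on the CR arrays and 11.04, 11.15 and 11.07 on the RM arrays. No group overlapped another. It changed by -2.62 ± 0.15 in CR over NR (adjusted p = 1.263e-06) and rose in RM over NR by 1.11 ± 0.15 (2.16-fold, adjusted p = 0.001114). Its CR over RM change of -3.73 ± 0.15 (adjusted p = 4.81e-07) was the lowest of the 76 genes. RPL38 was the gene called higher under rapamycin in the counts above, and without NR replicate 2 its rise was 0.96, just under 2-fold. The other 2 genes that were higher under rapamycin at an adjusted p under 0.05, RPL19B and RPL14B, stayed under 2-fold.

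**Figure D3:**
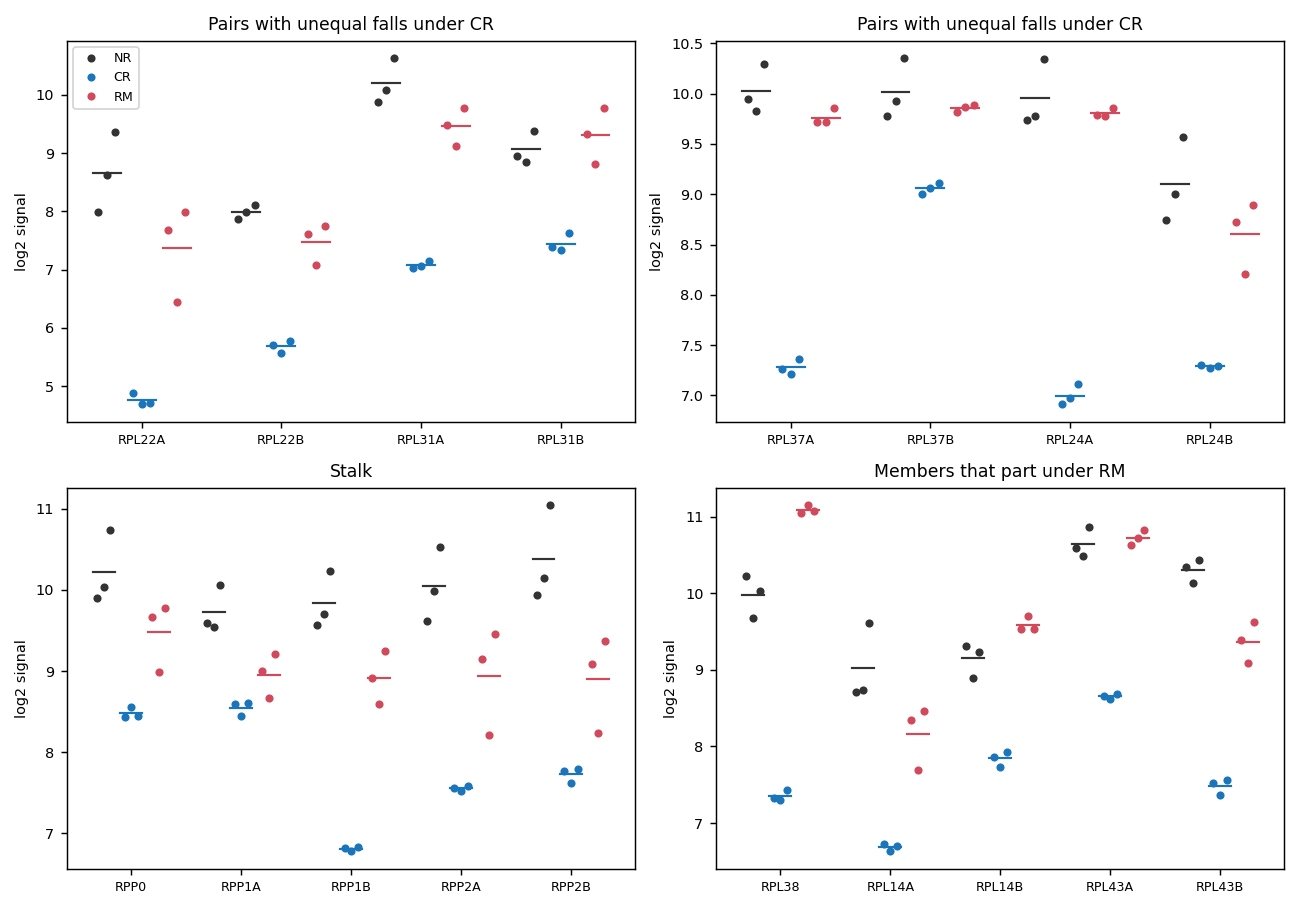
Log2 signal on every array (points, 3 per group from replicate 1 to 3, with the group mean as a line) for RPL22, RPL31, RPL37 and RPL24 copies, the stalk genes, RPL38 and the RPL14 and RPL43 copies. Levels are to be compared within a gene. The 3 RPL38 points in RM lie between 11.04 and 11.15, above all NR points, and the RPP1B points in CR lie at 6.78 to 6.83 while those of RPP1A stay at 8.44 to 8.61.

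The deepest falls in CR over NR were those of RPL22A, RPL16B, RPL31A and RPL27B. RPL22A (YLR061W) read 7.99, 8.63 and 9.37 in NR, 4.88, 4.69 and 4.71 in CR and 7.68, 6.45 and 7.99 in RM. Its change was -3.90 ± 0.42 in CR over NR (15.0-fold, adjusted p = 3.606e-05) and -1.29 ± 0.42 in RM over NR (adjusted p = 0.03856), where the highest RM array stood just under the lowest NR array. The latter call was lost without NR replicate 3 (-0.94, adjusted p = 0.09413), without RM replicate 2 (-0.83, adjusted p = 0.1113) and in a fit of the 6 NR and RM arrays alone (adjusted p = 0.09147). It was also lost without NR replicate 2 (adjusted p = 0.08308), without RM replicate 1 (0.06692) and without any 1 CR array (0.05889 to 0.05927), so that 7 of the 9 fits that leave out an array did not call it.

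RPL16B (YNL069C) read 9.14, 9.21 and 9.94 in NR, 6.16, 6.15 and 6.16 in CR and 8.50, 7.97 and 8.63 in RM, with all groups apart. RPL27B (YDR471W) read 8.41, 8.66 and 8.88 in NR, 5.52, 5.54 and 5.68 in CR and 8.10, 7.89 and 8.55 in RM, where RM overlapped NR. RPL16B fell by 3.27 in CR over NR and by 1.06 in RM over NR (adjusted p = 0.009226), and RPL27B fell by 3.07 in CR over NR and was not called in RM over NR (-0.47). The RPL16B call in RM over NR ended on size without NR replicate 3 (-0.81) and without RM replicate 2 (-0.86). RPL13A (YDL082W), another gene called lower under rapamycin, read 7.54, 7.86 and 8.30 in NR, 5.12, 5.17 and 5.11 in CR and 6.79, 5.89 and 7.04 in RM. It changed by -1.33 ± 0.29 in RM over NR (adjusted p = 0.008747), and without RM replicate 2 the change was just under 2-fold.

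At the other end, the smallest changes in CR over NR were those of RPL18B, the RPL15 pair and RPL10. RPL15A (YLR029C), whose protein is buried in the ribosomal RNA, read 9.61, 9.48 and 10.13 in NR, 9.78, 9.74 and 9.69 in CR and 9.80, 9.64 and 9.92 in RM. All groups overlapped, and the change in CR over NR was -0.0008 with a 95% interval from -0.39 to 0.38, so that a fall of the median size lies outside that interval. RPL15B (YMR121C) read 7.58, 7.66 and 7.73 in NR, 7.11, 7.16 and 7.17 in CR and 7.41, 7.24 and 7.49 in RM. It fell by 0.51 ± 0.11 in CR over NR (adjusted p = 0.002732), under 2-fold. RPL9A (YGL147C), also under 2-fold in CR over NR at -0.81 ± 0.19, read 8.02, 8.35 and 8.51 in NR, 7.45, 7.46 and 7.53 in CR and 7.86, 7.39 and 8.06 in RM.

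RPL18B (YNL301C) read 4.81, 4.86 and 5.11 in NR, 4.98, 5.08 and 5.15 in CR and 4.68, 4.17 and 5.04 in RM, and no comparison passed. Its second probe set, whose name ends in _s_at, fell by 1.58 ± 0.35 in CR over NR, so the response of RPL18B is uncertain.

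The copies of a pair often differed in how far they fell. To compare them, the log2 difference of copy A minus copy B was formed on each array, and its change between groups was tested in the same fit, so that each probe set is compared only with itself. A pair is called at an adjusted p under 0.05, with no limit on size. In CR over NR, 19 of the 30 pairs were called (63.3%), against 62.3% of all 53 pairs of genes named A and B on the array. The 53 were found by name alone and include small subunit pairs, so they are not a general sample of duplicated genes. Copy A was the lower one in 10 of the 19 and copy B in 9. In RM over NR, 12 of 30 pairs were called, against 39.6% of all pairs, and in CR over RM 17 of 30, against 50.9%. These shares are near those of all pairs, which include the 30. The differences were mostly modest, with a median size of 1.39-fold in CR over NR and 1.28-fold in RM over NR, and 11 of the called pairs differed by 1.5-fold or more in CR over NR, 8 under rapamycin and 7 between the treatments. Of all 53 pairs, 24 (45.3%), 15 (28.3%) and 16 (30.2%) did so. Across the 30 pairs the change of copy A and that of copy B correlated at a Pearson r of 0.32 for glucose limitation, 0.27 for rapamycin and 0.40 between the treatments, where both copies come from the same arrays. In 26 of 30 pairs both copies were called lower in CR over NR.

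**Figure D4:**
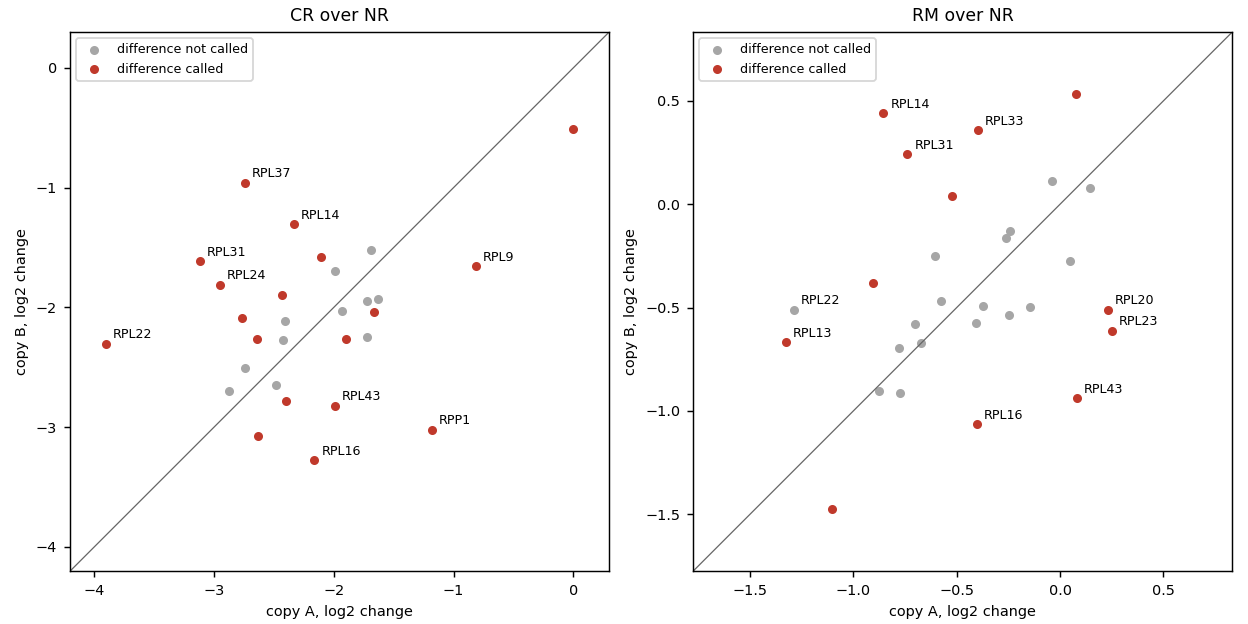
Log2 change of copy A (horizontal axis) against copy B (vertical axis) for the pairs reported here in CR over NR (left) and RM over NR (right), with the line of equal change. Red points are pairs whose difference was called, and they lie on both sides of the line. RPP1 lies 1.84 below the line and RPL37 lies 1.78 above it on the left, and RPL14 lies 1.29 above it on the right.

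In CR over NR, the RPL37 pair followed RPP1 in size. RPL37A (YLR185W) read 9.94, 9.83 and 10.29 in NR, 7.26, 7.21 and 7.36 in CR and 9.71, 9.71 and 9.85 in RM. RPL37B (YDR500C) read 9.77, 9.93 and 10.35 in NR, 9.0, 9.06 and 9.11 in CR and 9.82, 9.86 and 9.89 in RM. Copy A changed by -2.74 and copy B by -0.96, a difference of -1.78 ± 0.12 (3.44-fold, adjusted p = 2.441e-06), whereas RM overlapped NR in both. RPL37B missed the call in CR over NR by its size alone, and was called without NR replicate 1 and without NR replicate 2.

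The RPL22, RPL31 and RPL24 pairs also fell unequally, copy A further in each. RPL22B (YFL034C-A), whose splicing is held down in yeast by the protein that the pair encodes, read 7.87, 7.99 and 8.11 in NR, 5.70, 5.58 and 5.78 in CR and 7.61, 7.08 and 7.74 in RM. It fell by 2.30 in CR over NR, and the difference between the RPL22 copies was -1.60 ± 0.30 (adjusted p = 0.001054). RPL31A (YDL075W), of the tunnel mouth, read 9.88, 10.09 and 10.63 in NR, 7.02, 7.07 and 7.15 in CR and 9.48, 9.12 and 9.77 in RM. RPL31B (YLR406C) read 8.95, 8.85 and 9.38 in NR, 7.38, 7.34 and 7.62 in CR and 9.32, 8.82 and 9.77 in RM. RPL31A fell by 3.12 and RPL31B by 1.61, a difference of -1.5 ± 0.14 (adjusted p = 1.408e-05).

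RPL24A (YGL031C), whose protein forms a bridge to the small subunit, read 9.74, 9.77 and 10.35 in NR, 6.91, 6.97 and 7.11 in CR and 9.79, 9.78 and 9.86 in RM. RPL24B (YGR148C) read 8.74, 9.0 and 9.57 in NR, 7.31, 7.28 and 7.29 in CR and 8.72, 8.20 and 8.90 in RM. RM overlapped NR in both copies. The copies fell by 2.95 and 1.81 in CR over NR, a difference of -1.14 ± 0.17 (adjusted p = 0.000255). RPL16 and RPL14 also differed beyond 2-fold, with RPL16B falling further than RPL16A by 1.11 and RPL14A further than RPL14B by 1.03. A second RPL14B probe set, ending in _s_at, changed by -1.75 in CR over NR, where the one followed changed by -1.31 and RPL14A by -2.33. The size of the RPL14 difference is therefore uncertain.

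Under rapamycin, the copies of 9 of the 30 pairs lay on either side of 0, and 7 of these pairs were called. No such count is given for all pairs of genes named A and B. The copies of the 30 pairs had a median change of -0.49 in RM over NR. Their median 95% half-width was 0.44, so the sign of a small change is uncertain. A call concerns the difference between copies, and does not show that they moved in opposite directions. RPL14 was the 1 pair in which both copies passed an adjusted p of 0.05 in opposite directions, which held in 1 of the 9 fits that leave out an array, that without NR replicate 1. RPL14A (YKL006W) read 8.71, 8.74 and 9.61 in NR, 6.72, 6.63 and 6.71 in CR and 8.35, 7.69 and 8.46 in RM. RPL14B (YHL001W) read 9.32, 8.89 and 9.24 in NR, 7.87, 7.73 and 7.93 in CR and 9.54, 9.70 and 9.53 in RM. RM lay wholly below NR in copy A and wholly above it in copy B. Copy A changed by -0.86 ± 0.27 (adjusted p = 0.03445) and copy B by 0.44 ± 0.14 (adjusted p = 0.03547), a difference of -1.29 ± 0.29 (2.45-fold, adjusted p = 0.009163). The difference was called without NR replicate 3 (-1.05) and without RM replicate 2 (-1.0), whereas copy A alone missed the threshold without NR replicate 3 (adjusted p = 0.05929) and both copies missed it without RM replicate 2 (adjusted p = 0.1126 and 0.1003). The second RPL14B probe set, ending in _s_at, changed by 0.06 ± 0.12 in RM over NR and did not pass.

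RPL43 and RPL31 came next in RM over NR. RPL43A (YPR043W) read 10.60, 10.48 and 10.86 in NR, 8.66, 8.62 and 8.68 in CR and 10.63, 10.72 and 10.82 in RM. RPL43B (YJR094W-A) read 10.34, 10.14 and 10.43 in NR, 7.52, 7.37 and 7.56 in CR and 9.39, 9.09 and 9.62 in RM. RM overlapped NR in RPL43A and lay wholly below it in RPL43B, which changed by -0.94 ± 0.16 (adjusted p = 0.002836). The difference was 1.02 ± 0.14 for RPL43 (2.02-fold, adjusted p = 0.001276) and -0.98 ± 0.14 for RPL31 (1.97-fold, adjusted p = 0.001407), where RPL31A changed by -0.74 and RPL31B by 0.24.

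RPL33B (YOR234C) was among the highest genes of RM over NR. It read 9.05, 9.17 and 9.45 in NR, 7.35, 7.26 and 7.37 in CR and 9.50, 9.64 and 9.61 in RM. All RM arrays lay above all NR arrays, but the change of 0.36 ± 0.13 did not pass (adjusted p = 0.05443), while its difference from RPL33A of -0.76 ± 0.16 did (adjusted p = 0.007818). RPL20 differed by 0.74 ± 0.15 in the same comparison (adjusted p = 0.006501), with RPL20A at 0.23 and RPL20B at -0.51. A second RPL20B probe set, ending in _s_at, changed by -0.06.

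Whichever 1 array was left out, 13 of the called pairs stayed called in CR over NR, 8 did so under rapamycin and 11 between the treatments. Those in RM over NR were RPL4, RPL13, RPL14, RPL16, RPL20, RPL31, RPL33 and RPL43. In a fit of the NR and RM arrays alone, which leaves out the small spread of the CR arrays, 6 of the 12 pairs were called, namely RPL14, RPL16, RPL20, RPL31, RPL33 and RPL43. In 3 of the 30 pairs, RPL4, RPL8 and RPL21, copy A is read by a probe set ending in _s_at. By the array maker's naming such a probe set can match several transcripts, so that differences of these copies are uncertain. Such probe sets also read RPL1B, RPL7A, RPL35A, RPL41A and RPL42B, whose partners were not analysed here. RPL8A and RPL21A each have another probe set ending in _at. With probe sets ending in _at alone, RPL8 was also called in CR over NR, and RPL21 stayed called. There RPL8A changed by -3.06 and RPL8B by -2.11.

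Several large subunit proteins have dedicated chaperones that guard them before assembly, and these genes did not move as one. Of 5, SQT1 (the chaperone of Rpl10), RRB1 (of Rpl3) and SYO1 (of Rpl5 and Rpl11) were called lower in CR over NR, at -2.19 ± 0.14, -3.61 ± 0.41 and -1.23 ± 0.18. BCP1 (of Rpl23) was called higher, at 1.15 ± 0.17, and ACL4 (of Rpl4) was not called, at 0.16 ± 0.12. Of all genes, 19.8% were called lower and 17.8% higher in that comparison. With 4.61% of all genes called lower in RM over NR, RRB1 was the 1 chaperone gene called there, at -1.33 ± 0.41 (adjusted p = 0.03411). It read 6.22, 6.61 and 7.43 in NR, 2.93, 3.13 and 3.37 in CR and 5.95, 4.47 and 5.86 in RM, again with RM replicate 2 lowest. In CR over RM, SQT1 and RRB1 were called lower, against 13.1% of all genes.

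Among 11 regulators of ribosomal protein and ribosome assembly genes, 3 were called higher (27.3%) and 0 lower in CR over NR, against 17.8% and 19.8% of all genes. FHL1, the promoter-bound partner of the coactivator Ifh1, read 6.56, 5.97 and 5.97 in NR, 8.51, 8.43 and 8.42 in CR and 7.21, 7.32 and 6.89 in RM. No group overlapped another. FHL1 changed by 2.29 ± 0.18 in CR over NR (4.89-fold, adjusted p = 6.483e-06) and by 0.98 ± 0.18 in RM over NR, just under 2-fold. SCH9, a kinase acted on by TOR complex 1, was higher in CR by 1.74 ± 0.12, and RAP1, which encodes the general activator of these genes, by 1.08 ± 0.17. IFH1 was not called in either treatment, at 0.15 ± 0.16 in CR over NR and 0.65 ± 0.16 in RM over NR. ABF1, whose protein binds a minority of ribosomal protein promoters, was the regulator called in RM over NR, higher by 1.31 ± 0.14 (adjusted p = 0.0004895). That is 9.09% of the 11, against 3.99% of all genes called higher. In CR over RM, FHL1 and SCH9 were called higher, and TOD6, which encodes a repressor of ribosome assembly genes, was called lower at -1.22 ± 0.21. These are 18.2% and 9.09% of the 11, against 12.7% and 13.1% of all genes.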

How the data were processed

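RNA of 9 yeast cultures was hybridised to Affymetrix Yeast 2.0 arrays. The submitters' processing notes name RMA and Transcriptome Analysis Console 2.0, without saying what each did. The authors deposited log2 values per array and a table of signed fold changes (a linear score, negative for a fall) with p-values, 5716 probe sets in all. Differences of group means of the log2 values equal the log2 of the deposited folds within 1e-08 for all 5716. The deposited p-values of the large subunit genes, 167 of 167 that could be compared, match Tukey's test on the arrays within 1%. Array medians lay between 6.86 and 6.93, and the number of arrays limits the precision.

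ORFs were named through RefSeq's R64 table (5646 of 5667 genes matched). A gene was followed by its first probe set in the order of the value table. No source names the genome build of the array, and coordinates are left out. Group means of all 9 arrays were fitted with limma 3.58.1 (R 4.3.3) on the log2 values, two-sided, with Benjamini-Hochberg adjustment over 5667 genes. Differences of copies entered as added rows of the same fit. The code was tested on simulated data. Nothing says more of the replicates than that they are biological, so p-values measure the spread between these cultures. That spread is pooled over NR, CR and RM, of which CR varied least for the large subunit genes.

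Genes named with values per array are the 4 lowest and the 4 highest of each comparison, both copies of the 6 pairs that differ most in CR over NR and the 3 in RM over NR, the stalk, the 5S particle, RPL3, RPL10, RPL39, the RPL40 copies, and genes called against the majority. RPL13A, RPL19B, RPL33B and others enter by their rank. One gene that the rule names, and the pair it belongs to, are counted but not reported here. The RPL20 and RPL33 pairs, RPL1B and RPL41A were named after their values were seen. Members and lists were chosen with earlier results of these data known. Replicate numbers are shared by the groups, but same-numbered arrays did not deviate together: 1 of 9 correlations of deviations was over 0.1 (range -0.20 to 0.35), so the fit has no block. Alternatives were the block, each array left out, centring, quantile normalization, a filter on dim probe sets, other probe set rules, a trended robust prior, other fold limits, the authors' deposited folds and p-values and, added after the data were seen, fits of the 6 arrays compared.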

Additional observations from a re-analysis of the deposited data

How the results depend on the processing

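No called result changed direction under any alternative run. Counts of genes called in CR over NR (64 to 74) and CR over RM (46 to 69) stayed within 1.5 times the reported counts. The RM over NR count was the least stable. It was 22 with no limit on fold (19 lower, 3 higher), 17 at 1.5-fold (16 lower) and 0 at 3-fold (0 lower, 0 higher). Leaving out 1 array gave 2 to 14 calls, of which 1 to 13 lower and 0 to 1 higher. Pairs called fell from 12 to 6 in RM over NR in the fit of 6 arrays. That fit has fewer residual degrees of freedom and leaves out the small spread of the CR arrays. Its standard errors were larger, with RPL14 at 0.33 against 0.29 and RPL20 at 0.19 against 0.15 in the fit of 9 arrays. With a difference of 1.5-fold or more they fell from 19 to 11 in CR over NR and from 17 to 7 in CR over RM, by construction. By their labels, same-numbered arrays share only a number, though replicate 3 was the highest array of each group for most large subunit genes. With the replicate number as a block, 69 genes and 19 pairs were called in CR over NR, 7 and 9 under rapamycin, and 64 and 15 between the treatments. With that block and no limit on fold, 26 genes were lower and 2 higher in RM over NR. Among single genes and pairs named in the text, 2404 values kept their side of the threshold, 33 lost a call and 17 gained one.

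The arrays of each group number 3, and large subunit genes had a median 95% half-width of 0.43, a limit on what RM over NR can resolve. Dim probe sets (RPL18B, RPL41A) and probe sets ending in _s_at leave their genes uncertain. Of the 7 calls under rapamycin, 5 were lost without RM replicate 2 and 3 without NR replicate 2 or without NR replicate 3. Without RM replicate 1, 2 were lost, and without any 1 CR array 1 was lost. Only RPP2B was called in every fit that leaves out 1 array.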

Other observations

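Of the 76 genes, 7 had a second probe set. In CR over NR, RPL8A changed by -2.41 on the probe set followed and by -3.06 on the other, RPL21A by -2.64 and -2.96, RPL11B by -2.51 and -2.74, and RPL2A by -2.42 and -2.37. In RM over NR the second probe set of RPL11B passed an adjusted p of 0.05 in limma's test (-0.73, adjusted p = 0.03469), where the one followed did not (-0.67, adjusted p = 0.05171).

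Pairs that were called in none of the 3 comparisons numbered 5, and 7 pairs were called in both CR over NR and RM over NR, which share the NR arrays.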
